A study of Mus musculus with 9 samples.

Results

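The 9 genes described here encode TDP-43 and RNA-binding proteins related to it: Tardbp itself, Ewsr1, Taf15, Hnrnpa1, Hnrnpa2b1, Matr3, Tia1, Atxn2 and Celf1. They were taken by name from a table of 36121 genes, and all 9 were found and had enough signal to be tested among 15014 genes. The table came from RNA-seq of sciatic nerves of C57BL6 mice aged 21 days, with 3 mice per genotype, 2 females and 1 male in each. Control mice were Tardbp-fl/fl without Cre, cHet mice carried Cnp-Cre and 1 floxed allele (Cnp-Cre; Tardbp-fl/+), and cKO mice carried Cnp-Cre and both floxed alleles (Cnp-Cre; Tardbp-fl/fl), so that every mouse had a floxed Tardbp allele and only the cHet and cKO mice had Cre. Cnp-Cre is a knock-in at the Cnp locus and acts in myelinating glia, which in a nerve are the Schwann cells; neurons, fibroblasts, vessels and immune cells of the nerve are expected to keep Tardbp. Fewer cells of a type and less RNA per cell cannot be told apart in RNA of a whole nerve.

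TDP-43 is a nuclear RNA-binding protein of the hnRNP class that binds UG-rich RNA, represses the splicing of cryptic exons and lowers its own mRNA through a site in the 3′ untranslated region. It leaves the nucleus and aggregates in neurons in amyotrophic lateral sclerosis (ALS). The other genes encode proteins that share this disease link or this kind of RNA: EWS and TAF15 of the FET family, the hnRNPs A1 and A2/B1, the nuclear matrix protein matrin 3, the stress granule protein TIA1, ataxin-2, which modifies TDP-43 toxicity, and CELF1 (CUG-binding protein 1), which binds GU-rich RNA and acts in splicing and mRNA decay. Schwann cells depend on splicing for several of the proteins that join myelin to the axon.

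The letters that TDP-43 and CELF1 are known for were looked up in the longest protein-coding transcript of each gene (GENCODE M21, build GRCm38). The motif TGTGTGTG, read on the transcript strand alone and with overlapping matches counted, was present in 4 of the 9 genes, and in 21.9% of the longest coding transcripts of all 21901 genes. The longest TG run of each of these 4 genes is shown because they include Tardbp and Celf1, on which the results turn. All 4 runs lie in the 3′ untranslated region, and the capitals mark the run within a window of 30 bases, written 5′ to 3′ as DNA:
Tardbp, chr4:148613760-148613789, minus strand: tcctcctataGTGTGTGTGgacagcccaca
Celf1, chr2:91019351-91019380, plus strand: ccttccttttTGTGTGTGTttccttttgtc
Hnrnpa1, chr15:103244383-103244412, plus strand: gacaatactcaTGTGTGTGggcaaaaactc
Tia1, chr6:86432814-86432843, plus strand: gcagtgattatTGTGTGTGagatttttccc
The runs of Tardbp and Celf1 were 9 bases long, and those of Hnrnpa1 and Tia1 were 8. Celf1 had 2 matches of the motif, of which only 1 lies in the run shown, and Tardbp, Hnrnpa1 and Tia1 had 1 each. Long transcripts hold such runs often: the motif was found in 46.8% of the 1697 transcripts within 20% of the length of the Tardbp transcript (7477 bases), and in 48.3% of the 1534 of like length to that of Celf1 (7851 bases). For Tia1 and Hnrnpa1 the shares were 31.9% and 13%. The other 5 genes had no match in these transcripts. These matches are a description of letters and not of binding sites.

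Values are normalized TPM as deposited, a level per transcript length that can be compared between genes. The genotype field of 3 libraries (1 cHet, 2 cKO) differs from their titles, which were used here. Markers of Schwann cells were present in every library, with summed levels of 75539 to 131849 and no marker at 0. Markers of other tissues stood more than 1 above the median of the 9 libraries (mean log2 value of the list) in 1 library of each genotype for neurons, in 1 control and 2 cKO libraries for skeletal muscle, and in 2 control libraries for adipocytes. Their summed levels spanned 163 to 3535 for the 8 neuron markers, 38.4 to 17887 for the 10 muscle markers and 68.7 to 3661 for the 8 adipocyte markers. Their part in the results below was not tested, other than by leaving those libraries out.

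Tardbp (ENSMUSG00000041459, chr4:148612382-148627019, minus strand) is the gene targeted by the cross. Its level was 185, 194 and 217 in the control nerves, 177, 179 and 186 in the cHet nerves, and 103, 94.2 and 103 in the cKO nerves. Every cKO nerve lay below every other nerve, while the cHet and control ranges overlapped. The cKO mean of 100.1 ± 5.11 (SD, n = 3) was 50.3% of the control mean of 199 ± 16.5 (n = 3) and 55.4% of the cHet mean of 181 ± 4.90 (n = 3). The difference from control was -0.98 on the log2 scale (standard error 0.086, limma adjusted p = 0.00219) and that from cHet -0.85 (standard error 0.086, limma adjusted p = 0.0039). In the fit across all genes 1.57% of genes were called in cKO against control and 1.71% in cKO against cHet, at an adjusted p under 0.05. The 2 cKO nerves whose genotype field reads fl/+ with Cnp-Cre stood at 103 and 94.2, beside 103 in the third. The field of 1 cHet nerve reads Tardbp-fl/fl without Cre, as for control mice. That nerve stood at 177, beside 179 and 186 in the other cHet nerves and 185 to 217 in the control nerves. The 95% interval of the fold, cKO over control, ran from 0.441 to 0.579. Without the 3 libraries with differing labels the difference from control was -0.94, and without those high in neuron, muscle or adipocyte markers it was -1.02, -1.0 and -0.95, but on these fewer libraries it did not pass (limma adjusted p of 0.0535 to 0.356). The mRNA that stayed in the cKO nerves cannot be assigned to a cell type or to a form with or without the deleted part, because each value is a sum over the gene.

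The level of Tardbp with 1 intact allele stayed near that without Cre. The log2 difference between cHet and control was -0.14 (95% interval -0.33 to 0.06, cHet at 90.8% of control), and it did not pass (limma adjusted p = 1). Of the 15014 genes tested, 0 were called by limma between cHet and control (0.00%), 408 had an unadjusted p under 0.05, and 2 were called when genes of low level were kept in. The cHet level stood 0.36 on the log2 scale above the point midway between control and cKO (95% interval 0.19 to 0.53, unadjusted p = 0.00115), which did not pass over all genes (limma adjusted p = 0.26); 0.0866% of genes did. Tardbp was among the most evenly measured genes, with a residual SD, as moderated by limma, of 0.105 on the log2 scale. Of the tested genes, 97.4% had a larger one. The moderation draws this SD toward that of genes of like level, and 94.6% of tested genes had a lower mean than Tardbp.

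**Figure D1:**
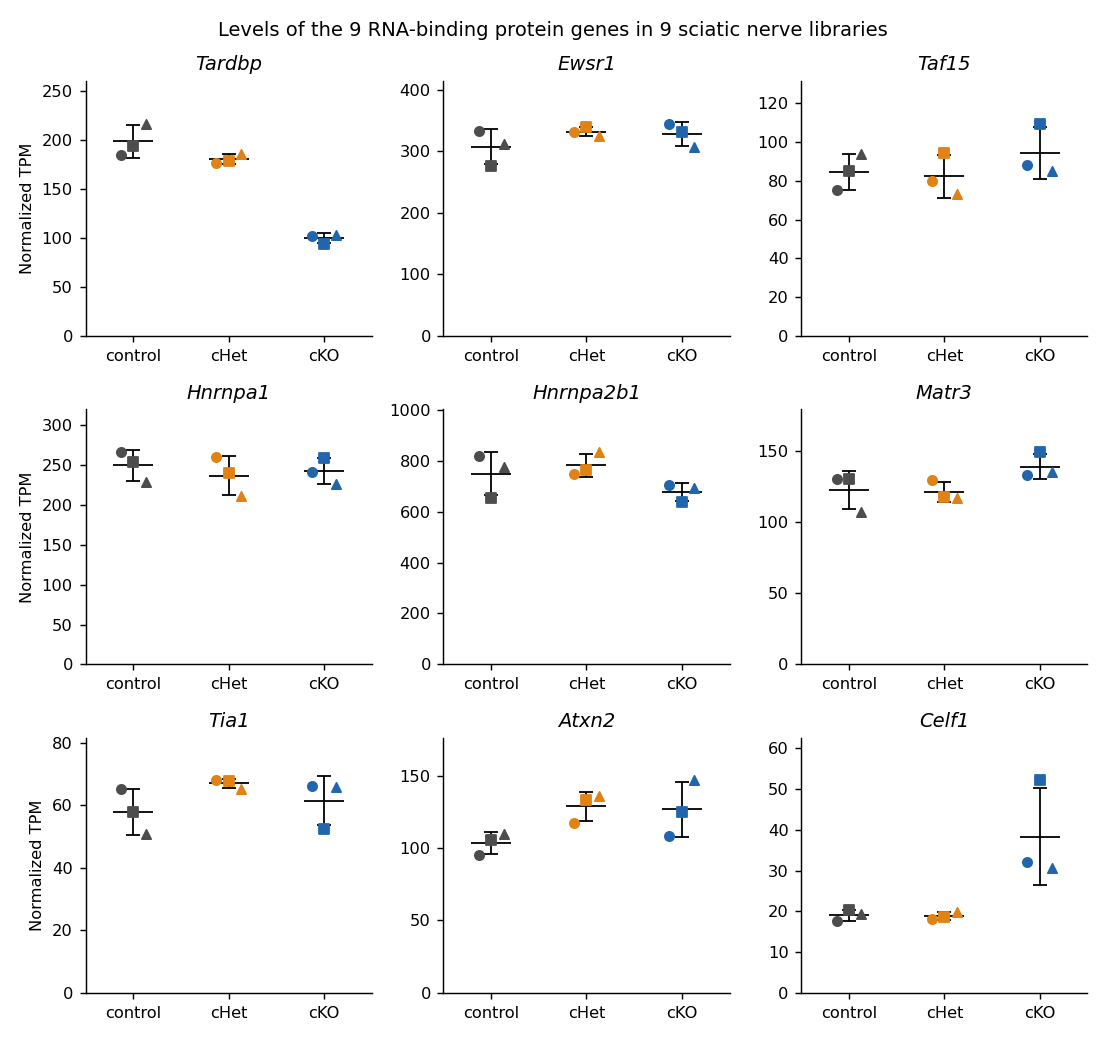
Normalized TPM (vertical axes, each starting at 0) of the 9 genes in control, cHet and cKO sciatic nerves (horizontal axes). Each point is 1 mouse, with the same symbol for the same mouse in all panels, and the bars give the mean and SD of 3 mice. Tardbp in the cKO nerves sits between 94.2 and 103, below all others, and Celf1 between 30.7 and 52.1, above all others.

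Celf1 (ENSMUSG00000005506, chr2:90940382-91019497, plus strand) was the 1 gene of the 9 that was called higher in the cKO nerves. Its level was 17.5, 20.2 and 19.4 in the control nerves, 18.1, 18.5 and 19.9 in the cHet nerves, and 32.1, 52.1 and 30.7 in the cKO nerves. Each cKO nerve lay above all 6 others, and the cHet and control values lay among each other. The 2 cKO nerves whose genotype field reads fl/+ stood at 32.1 and 52.1, beside 30.7 in the third. The cHet nerve whose field reads Tardbp-fl/fl without Cre, as for control mice, stood at 18.1. The libraries high in muscle markers were the cKO nerves at 52.1 and 30.7 and the control nerve at 17.5. Their summed muscle markers were 672, 9414 and 17887 in that order. The cKO mean of 38.3 ± 12.0 (SD, n = 3) was 2.01 times the control mean of 19.1 ± 1.38 (n = 3) and 2.03 times the cHet mean of 18.8 ± 0.938 (n = 3). The log2 difference was 0.95 against control (standard error 0.186, 95% interval 0.52 to 1.37, limma adjusted p = 0.0498) and 0.96 against cHet (standard error 0.186, limma adjusted p = 0.0456). The call was at the edge of the threshold: by p, Celf1 ranked 235 among the 235 genes called against control. It was kept under 3 of 21 other settings against control and under 5 of 21 against cHet, with log2 differences of 0.68 to 1.13 and 0.66 to 1.10. The cKO nerve at 52.1 carried much of the spread; without it the difference from control was 0.71 (limma adjusted p = 0.0399) and that from cHet 0.72 (limma adjusted p = 0.0356). Leaving out any other single library ended the call, with limma adjusted p of 0.0633 to 0.13 against control and 0.0628 to 0.177 against cHet. In the cHet nerves the difference from control was -0.02 (95% interval -0.44 to 0.41).

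The other 7 genes were not called in any of these comparisons. Against the background shares of 1.57% and 1.71% above, 2 of the 9 genes were called between cKO and control, and the same 2 between cKO and cHet. Tardbp was lower in both, as were 0.633% of tested genes against control and 0.773% against cHet, and Celf1 was higher in both, as were 0.932% in each comparison. These comparisons share the cKO nerves, and those with control share the control nerves. Tardbp is the gene targeted by the cross, and the 9 genes were chosen with earlier results of these data known. The 2 calls among the 9 are therefore no measure of an excess over the background shares. By overlap alone, 2 of the 9 genes lay above all control nerves in all 3 cKO nerves (Matr3 and Celf1, where 8.85% of tested genes did so) and 1 below (Tardbp, against 8.57%). Against cHet, 2 lay above (Matr3 and Celf1, against 13.3%) and 2 below (Tardbp and Hnrnpa2b1, against 11.0%). Between cHet and control, 2 lay above (Tia1 and Atxn2, against 2.69%) and 0 below (against 4.41%). Taken 1 gene at a time, 3 nerves against 3 cannot give a two-sided exact permutation p under 0.1, which each of these non-overlapping pairs reached (0.3 after adjustment over 27 tests).

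**Figure D2:**
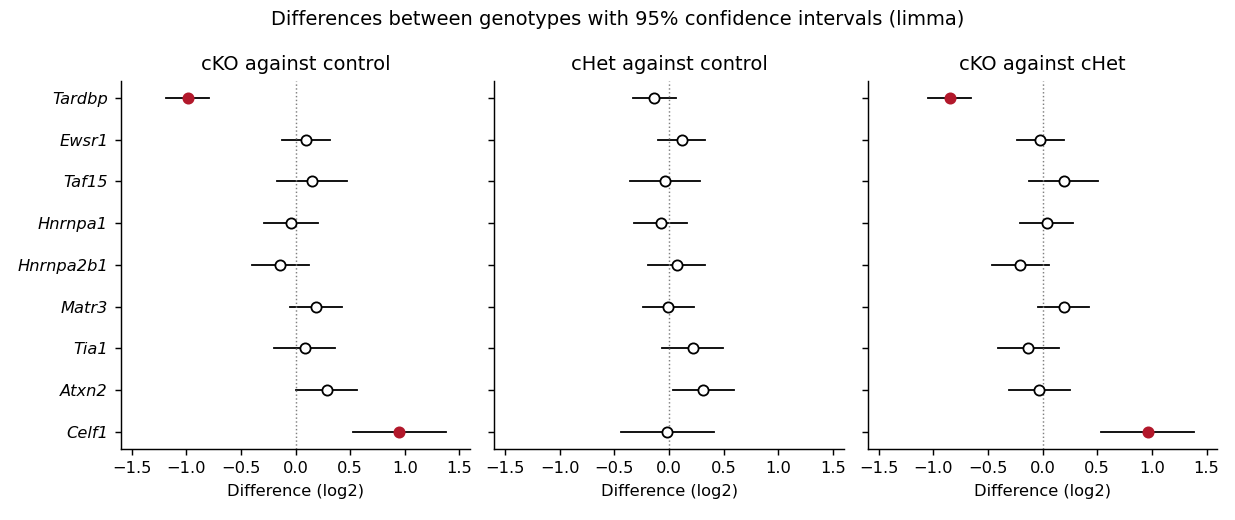
Difference of each gene between 2 genotypes on the log2 scale (horizontal axis), with the 95% confidence interval from limma as a line. Filled red points passed an adjusted p of 0.05 over all tested genes, which are Tardbp and Celf1 in the comparisons of cKO with control and with cHet, and no gene in that of cHet with control.

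Ewsr1 and Taf15 encode FET proteins, which bind RNA and chromatin and act in transcription and splicing. Ewsr1 stood at 334, 277 and 312 in the control nerves, 331, 340.2 and 325 in the cHet nerves and 345, 331 and 307 in the cKO nerves. These ranges overlapped throughout, and the cKO difference from control was 0.09 (95% interval -0.12 to 0.31, limma adjusted p = 0.768). Taf15 stood at 75.3, 85.1 and 93.9 in the control nerves, 79.9, 94.7 and 73.0 in the cHet nerves and 88.1, 109.7 and 85.4 in the cKO nerves. Its highest value came from the same cKO nerve as that of Celf1, the ranges overlapped, and the difference from control was 0.15 (95% interval -0.17 to 0.47, limma adjusted p = 0.738). For both genes the intervals against cHet also held 0.

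Hnrnpa1 and Hnrnpa2b1 encode the hnRNPs that coat nascent RNA and choose splice sites, with A2/B1 also carrying RNA in the cytoplasm. Hnrnpa1 stood at 267, 254 and 229 in the control nerves, 261, 239.9 and 211 in the cHet nerves and 242, 259 and 227 in the cKO nerves. Its groups covered nearly the same range, with a cKO difference from control of -0.04 (95% interval -0.29 to 0.20, limma adjusted p = 0.929). A further 9 pseudogenes share stretches of at least 500 bases with it at 95% identity or more, so that reads could have been split between them, though the highest of these was listed at a mean of only 0.24. Hnrnpa2b1, the gene with the highest level of the 9, stood at 819.7, 654 and 773 in the control nerves, 748, 765 and 834 in the cHet nerves and 705, 637 and 692 in the cKO nerves. All cKO nerves lay below all cHet nerves but not below all control nerves. The difference was -0.21 against cHet (95% interval -0.47 to 0.05, limma adjusted p = 0.46) and -0.14 against control (95% interval -0.40 to 0.12, limma adjusted p = 0.70).

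Matr3 encodes matrin 3, a protein of the nuclear matrix that binds RNA and represses exons. It stood at 130.1, 130.1 and 107 in the control nerves, 129.6, 118 and 117 in the cHet nerves and 133, 149 and 135 in the cKO nerves. The 3 cKO nerves lay above the 6 others, the lowest of them by a narrow margin. The difference was 0.19 against control (95% interval -0.05 to 0.42, limma adjusted p = 0.508) and 0.19 against cHet (95% interval -0.04 to 0.43, limma adjusted p = 0.431), and neither passed. Matr3 overlaps a second protein-coding gene model on the same strand over 25571 bases, with a shared stretch of 1313 bases at 100% identity, which has no value in the table.

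Tia1 and Atxn2 encode RNA-binding proteins that regulate translation and gather in stress granules. Tia1 stood at 65.3, 57.8 and 50.7 in the control nerves, 68.0, 67.8 and 65.4 in the cHet nerves and 66.2, 52.5 and 65.9 in the cKO nerves. The cHet nerves lay above the controls, the lowest of them by a narrow margin. The cKO nerves at 66.2 and 65.9 also lay just above the controls, and that at 52.5 lay within their range. The cKO difference from control was 0.08 (95% interval -0.19 to 0.36, limma adjusted p = 0.853). Atxn2 stood at 95, 105 and 109.8 in the control nerves, 117, 133 and 136 in the cHet nerves and 109, 125 and 147 in the cKO nerves. All 3 cHet nerves lay above the controls, while the lowest cKO nerve lay within the control range. Atxn2 had the largest difference of the other 7 genes in both comparisons with control, 0.31 in cHet (95% interval 0.03 to 0.60, unadjusted p = 0.0324, limma adjusted p = 1) and 0.28 in cKO (95% interval 0.00 to 0.57, unadjusted p = 0.0479, limma adjusted p = 0.38). The cKO and cHet nerves, which differed in Tardbp, stood at similar Atxn2 means of 127 ± 19.1 and 129 ± 10.1 (SD, n = 3 each), with a log2 difference of -0.03 (95% interval -0.31 to 0.25).

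The order of the 9 levels was alike in control and cHet nerves and altered in the cKO nerves at the place of Tardbp. In the control nerves it ran from Hnrnpa2b1 (mean 749) through Ewsr1 (308), Hnrnpa1 (249.8), Tardbp (199), Matr3 (122), Atxn2 (103), Taf15 (84.7) and Tia1 (57.9) to Celf1 (19.1). Of the 8 neighbouring pairs in this order, the ranges overlapped in 1, Matr3 and Atxn2. In the cHet nerves only Matr3 and Atxn2 changed places, and again theirs were the only ranges that overlapped. Tardbp was the fourth highest gene in each of the 6 control and cHet nerves and the sixth or the seventh in each cKO nerve. There it lay below Matr3 (139 ± 8.93) and Atxn2 (127 ± 19.1), and its range overlapped that of Taf15 (94.4 ± 13.3). Celf1 was the lowest of the 9 in every nerve, and in the cKO nerves its highest value, 52.1, came close to the lowest of Tia1, 52.5.

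Set against the genes measured in the same library, both differences from control kept their size. The summed level of the 7 genes other than Tardbp and Celf1 was 1675 ± 112 in the control, 1751 ± 14.3 in the cHet and 1670.1 ± 15.4 in the cKO nerves (SD, n = 3 each). Every cKO nerve lay below every cHet nerve in this sum (two-sided exact permutation p = 0.1). Relative to it, the folds of cKO over cHet were 0.581 for Tardbp and 2.13 for Celf1, beside 0.554 and 2.03 for their levels alone. Tardbp amounted to 10.4%, 12.4% and 13% of that sum in the control nerves, 10.2%, 10.2% and 10.6% in the cHet nerves and 6.08%, 5.66% and 6.24% in the cKO nerves. Celf1 amounted to 0.982%, 1.29% and 1.16% in the control nerves, 1.04%, 1.05% and 1.13% in the cHet nerves and 1.90%, 3.13% and 1.85% in the cKO nerves. The level of Celf1 relative to Tardbp was 9.47%, 10.4% and 8.94% in the control nerves, 10.2%, 10.4% and 10.7% in the cHet nerves and 31.3%, 55.3% and 29.7% in the cKO nerves. The cKO nerves thus stood apart from the 6 others in each of these ratios, at the smallest p the design allows (two-sided exact permutation test, p = 0.1, 3 against 3, or 0.18 after adjustment over 18 tests). The mean of Celf1 relative to Tardbp was 4.03 times that of the control nerves in the cKO and 1.08 times in the cHet (exact permutation p = 0.3, adjusted 0.415). This last ratio combines the 2 differences above and is no further result. Its denominator is the gene targeted by the cross, so it would rise in the cKO nerves even with Celf1 unchanged.

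**Figure D3:**
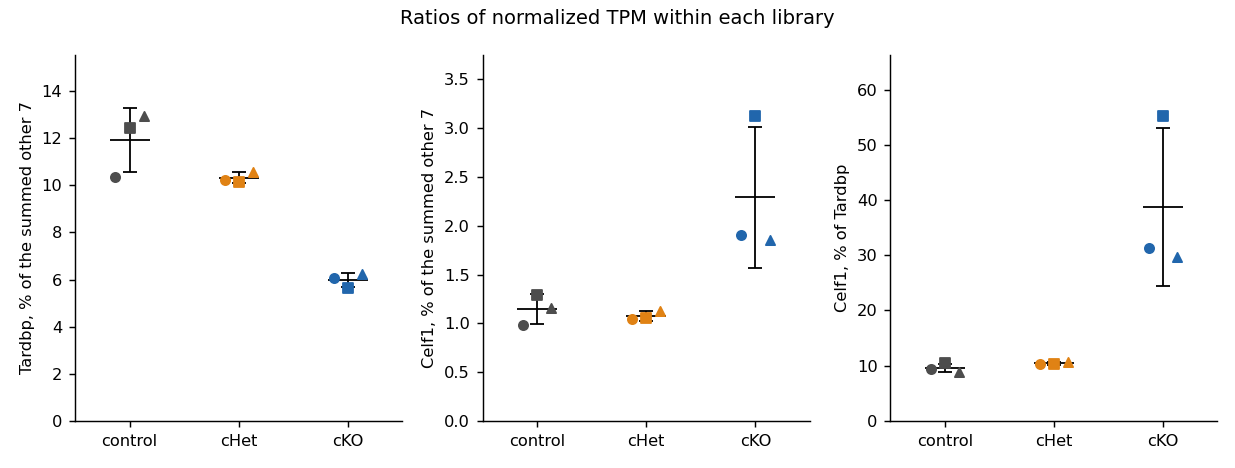
Ratios of normalized TPM within each library, in percent (vertical axes, starting at 0), for control, cHet and cKO nerves: Tardbp and Celf1 against the summed level of the other 7 genes, and Celf1 against Tardbp. Points are single mice and bars give the mean and SD of 3. Celf1 stands at 8.94% to 10.7% of Tardbp in the control and cHet nerves and at 29.7% to 55.3% in the cKO nerves. Tardbp, the denominator there, is the gene targeted by the cross.

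Cnp, whose locus carries the Cre, was read beside these genes. Its level was 1379 ± 283 in the control, 764 ± 110 in the cHet and 617 ± 160.4 in the cKO nerves (SD, n = 3 each), with all Cre-carrying nerves below all control nerves. The cHet nerves, with the 1 whose genotype field names no Cre, stood at 640 to 849, and the control nerves at 1168 to 1700. The cKO difference from control was -1.17 (standard error 0.217, limma adjusted p = 0.0402) and that of cHet from control -0.84 (limma adjusted p = 1). The comparison of cKO with cHet, in which both groups carry the Cre, gave -0.33 for Cnp (95% interval -0.82 to 0.17, limma adjusted p = 0.55).

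Genes that work with or resemble the 9 were read from 6 lists with 78 entries, of which 77 were tested. Of these 77 genes, 0 passed in cKO against control, in cKO against cHet or in cHet against control by limma, beside 1.57%, 1.71% and 0.00% of all genes. At an unadjusted p under 0.05 the numbers were 5 (6.49%), 11 (14.3%) and 3 (3.90%), where all tested genes gave 12.9%, 14.6% and 2.72%. The median difference of the 77 genes was 0.00 against control and 0.04 against cHet for cKO, where the medians of all tested genes were -0.02 and 0.02.

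The closest relatives of the 9, 12 paralogs that include Hnrnpa3 and the other Celf genes, had a median cKO difference from control of -0.02, with 0 called in either direction. Hnrnpa3 stood at 188 in the control and 186 in the cKO nerves (log2 difference -0.01, 95% interval -0.21 to 0.19), and Hnrnpab at 174 and 169 (-0.04). Celf5, a neuronal relative of Celf1 chosen here after its value was seen, was low in every nerve, with a mean of 4.87 in the control and 2.35 in the cKO nerves, and had the smallest p of the list (log2 difference -0.92, limma adjusted p = 0.156). Among 17 other hnRNP genes the median was 0.04 and the range ran from -0.20 to 0.23. Hnrnph1 (379 in control, 409 in cKO) and Pcbp2 (394 and 405), the most abundant of them, differed by 0.11 and 0.03, and 0 of the 17 had an unadjusted p under 0.05 in any of the comparisons between genotypes. The 3 tested genes among the muscleblind genes, which oppose CELF1 on many exons, and Elavl1, which stabilises mRNA, had a median of 0.06. Mbnl2 stood at 149 and 154 (0.06) and Mbnl1 at 67.2 and 76.4 (0.19, limma adjusted p = 0.553).

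Among 14 stress granule proteins the median cKO difference was 0.07 from control and 0.14 from cHet, with 0 called. Ybx1 stood at 1326 in the control and 1065 in the cKO nerves (-0.30, 95% interval -0.88 to 0.29) and Pabpc1, the cytoplasmic poly(A)-binding protein, at 189 and 214 (0.19, limma adjusted p = 0.428). Among 12 nuclear transport receptors, which carry proteins such as TDP-43 and the hnRNPs between nucleus and cytoplasm, the median was 0.06 from control, with Ran at 73.2 and 80.8 (0.15) and Kpnb1 at 59.7 and 52.7 (-0.18, limma adjusted p = 0.363). Among 19 other genes linked to ALS the median was -0.17 from control and -0.03 from cHet. Pfn1 stood at 401 and 424 (0.08) and Sqstm1, an autophagy receptor, at 245 and 295 (0.28, limma adjusted p = 0.441). Optn, another autophagy receptor named after its value was seen, had the smallest p of all 6 lists against control. It stood at 23.5, 21.6 and 21.2 in the control, 17.6, 18.4 and 17.4 in the cHet and 16.0, 16.2 and 17.4 in the cKO nerves, with both Cre-carrying groups below the control range. Its differences from control, -0.41 in cKO (limma adjusted p = 0.0655) and -0.30 in cHet (limma adjusted p = 1), did not pass.

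**Figure D4:**
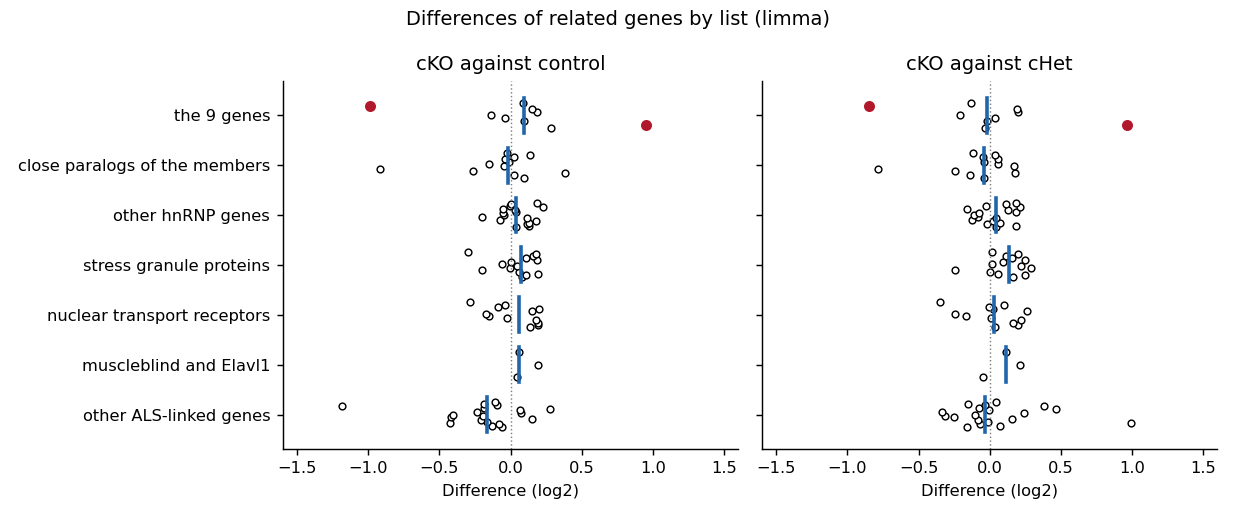
Differences on the log2 scale (horizontal axis) of the 9 genes and of 77 related genes in 6 lists (rows), for cKO against control and cKO against cHet. Each circle is a gene, filled red where limma's adjusted p was under 0.05, and blue lines are medians of a list. Tardbp and Celf1 are the 2 filled points in each panel, and 0 of the 77 related genes are filled.

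The genes whose pattern over the 9 libraries was most like that of Tardbp were sought among 8774 named genes with a mean of at least 10, by the root mean square difference of centred log2 values. The 5 nearest were Pigq (0.127), Tnfsfm13 (0.129), Grik5 (0.133), Snrnp70 (0.136) and Igf1r (0.145), where the root mean square of the centred values of Tardbp itself was 0.441. Because they were chosen for this pattern their levels are a description. Pigq, an enzyme subunit of GPI anchor synthesis, stood at 84.5 ± 3.90 in the control, 87.9 ± 7.87 in the cHet and 42.6 ± 3.17 in the cKO nerves (SD, n = 3 each). Snrnp70, a protein of the U1 snRNP, stood at 327 ± 59.8, 303 ± 17.3 and 176 ± 18.8 in the same order. Grik5, a glutamate receptor subunit, stood at 26.4, 26.2 and 15.7, and Igf1r, the IGF-1 receptor, at 16.1, 15.1 and 9.37. Tnfsfm13, a read-through gene of the TNF ligand cluster whose reads can be shared with its parts, stood at 35.6, 32.8 and 18.2. None of the other 8 RNA-binding protein genes was among these 5.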

How the data were processed

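Sciatic nerve RNA of 9 mice had been sequenced by the authors from TruSeq libraries, and the authors deposited normalized TPM, a signal per gene and library. Their processing notes list kallisto 0.44.0 and sleuth 0.30.0 with the build GRCm38; how strand, annotation and scaling between libraries were set is not given in the sources used. Library sums ran from 934932 to 1158094. TPM hold no read counts; the paper states the sequencing yield only as a range over samples, so that the counting error of a single value was not computed. Groups came from the sample titles.

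Symbols were matched by Ensembl identifier (35471 of 36121). Genes with a mean of at least 1 (15014) were fitted on log2(value + 0.5), which understates the change of low genes, in 1 model of 9 libraries with limma 3.58.1 in R 4.3.3 (trended eBayes, Benjamini-Hochberg over all tested genes, threshold 0.05). Every adjusted p comes from limma unless an exact permutation test is named (SciPy 1.17.1; 27 tests of single genes and 18 of ratios and sums). On simulated data for cKO against control, with 200 of 15014 genes changed, 154 were called, 5 of them unchanged. Of changes of 1 and of 2 on the log2 scale, 62% and 87% were recovered. The simulated errors were normal, independent between genes and drawn with the variances of the limma fit, without differences in tissue between libraries. These shares check the code and need not hold for the nerves. Positions and transcripts are from GENCODE M21 (GRCm38) and near copies from BLAST 2.17.0. Antisense overlaps (Masp2 at Tardbp, Rhbdd3 at Ewsr1, Sh2b3 at Atxn2, Dnajc7 at Cnp) could share reads if counting ignored strand.

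The members and lists were chosen with earlier results of these data known. Named genes are the 9, Cnp, list genes that pass, the 2 most abundant of each list and the 5 nearest to Tardbp; Celf5 and Optn were named outside this rule, after their values were seen. Alternatives were pseudocounts of 0.1 and 1, no filter or a mean of at least 5, quantile normalization, median of ratios scaling, sex as a covariate, fits of only the 2 groups compared, and leaving out single libraries, those with differing labels or those high in neuron, muscle or adipocyte markers.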

Additional observations from a re-analysis of the deposited data

How the results depend on the processing

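Tardbp was lower in cKO under all 21 alternatives in both comparisons, by -1.03 to -0.92 on the log2 scale against control and -0.94 to -0.81 against cHet, and passed limma's threshold in 17 and 18 of them. It did not pass without the 3 libraries with differing labels (-0.94, adjusted p = 0.356 against control; -0.81, adjusted p = 0.432 against cHet), the neuron-high (-1.02, 0.0864; -0.89, 0.122) or the muscle-high libraries (-1.0, 0.311; -0.81, 0.336), nor, against control, without the adipocyte-high ones (-0.95, 0.0535); these fits rest on fewer libraries, and in some a lone cKO or control library is assumed to vary like the rest. Celf1 was higher under all 21 in both, with adjusted p from 0.0399 to 0.506 against control and 0.0356 to 0.541 against cHet. The 7 other genes passed in 0 of 441 results. Members called in cKO against control were 1 with pseudocounts of 1 or 0.1, no filter, median of ratios scaling, sex as a covariate or only the 2 groups compared, and 0 without the differing-label, neuron-high, muscle-high or adipocyte-high libraries; leaving out 1 library gave 1 to 2. Against cHet they were 1 with no filter, median of ratios scaling, sex, only the 2 groups compared or without the adipocyte-high libraries, and 0 without the other sets; leaving out 1 library gave 1 to 2.

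Genes called in cKO against control were 0 without the differing-label or muscle-high libraries, 15 without the neuron-high, 19 without the adipocyte-high and 50 with only the 2 groups compared; leaving out 1 library gave 49 to 176. Against cHet they were 168 with no filter, 0, 15 and 0 without the differing-label, neuron-high and muscle-high libraries, and 55 to 270 leaving out 1 library. For cHet against control no filter gave 2. For cHet against the midpoint, where 13 were called, pseudocount 1 or a mean of at least 5 gave 8, no filter or quantile normalization 6, sex 5, the adipocyte-high set 1 and the other sets 0, and leaving out 1 library 0 to 8. The cause was not tested. No paired analysis was possible because neither the labels nor the paper say which of these mice came from the same litter, although its methods describe sets matched by litter or birth date, and the groups share no replicate number. With 3 mice a group, changes of the size seen in Matr3, Atxn2 or Hnrnpa2b1 could not be told from the spread between mice.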
